A study of Mus musculus with 6 samples.

Results

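The 8 Polycomb complex genes described here are Ezh1, Ezh2, Eed, Suz12, Jarid2, Rbbp4, Rbbp7 and Bmi1. They were taken by name from the 32285 genes of the count table, and all 8 were present. Polycomb repressive complex 2 places methyl groups on lysine 27 of histone H3, a mark found at genes kept silent through development. Its catalytic subunit is either Ezh2 or the related Ezh1. Eed binds the finished mark and stimulates the enzyme, Suz12 holds the subunits together, Rbbp4 and Rbbp7 bind histones and also serve in other chromatin complexes, and Jarid2 is an accessory subunit. Bmi1 belongs to the other complex, Polycomb repressive complex 1, which acts as a ubiquitin ligase on histone H2A. In neural progenitors Ezh2 is known as the enzyme of dividing cells, and Ezh1 as the one that remains in differentiated tissue.

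Single cells were prepared from the striatum of wild type male C57BL/6 mice by magnetic sorting with an antibody to ACSA2, a surface antigen of astrocytes, and their polyadenylated RNA was counted with a droplet kit that reads the 3′ end of each transcript. One group was taken at postnatal day 3 (P3) and the other at 3 months (3m), with 3 libraries each, and no group carried a transgene or received a treatment. Tissue of several mice went into each preparation, so a library is a pool and not an animal. The deposited annotation placed 14373 of 16690 barcodes in 24 clusters, of which 9992 cells were astroglial, 8874 at P3 and 1118 at 3m.

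The astroglial cells held 22327104 to 30617140 unique molecular identifiers (UMIs, each standing for 1 captured transcript) per P3 library and 1157485 to 1843998 per 3m library. All 6 astrocyte markers were detected at both ages, with a summed level of 4820 to 5778 UMIs per 1000000 (CPM, over all UMIs of the same cells of a library) at P3 and 14366 to 15178 CPM at 3m. The ages also differed in other ways. The median mitochondrial share per astroglial cell was 1.27 to 2.47% at P3 and 5.97 to 8.18% at 3m. All 6 oligodendrocyte markers were found in the 3m astroglia, at a summed 708 to 1864 CPM, against 5.45 to 6.40 CPM at P3, where Mog and Opalin were at 0, and a mean of 34654 CPM in the oligodendrocyte clusters. Astroglial sub-cluster 1 came to 95.5% from P3 replicate 1, sub-clusters 4 and 12 to 97.8% and 96.1% from P3 replicate 3, and sub-cluster 14 to 98.9% from 3m replicate 1. Any 2 libraries shared 0 to 9 cell barcodes.

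In the mouse genome (GRCm38) the members lie apart from each other. Ezh2 occupies chr6:47530139-47595341 on the minus strand and Ezh1 chr11:101191115-101226463 on the minus strand. Suz12 lies at chr11:79993106-80034123 on the plus strand, Eed at chr7:89954654-89980983 on the minus strand, Jarid2 at chr13:44729474-44921643 on the plus strand and Bmi1 at chr2:18677018-18686629 on the plus strand. Rbbp4 is at chr4:129307100-129335370 on the minus strand and Rbbp7 at chrX:162760402-162779092 on the plus strand. Eed, Rbbp4 and Rbbp7 overlap counted genes on the opposite strand (E230029C05Rik, Sync and Txlng), and whether the counting used strand is not given in the sources used here, so their values are less certain.

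The promoters of Ezh2, Ezh1 and Suz12 are shown because the first pair moved in opposite directions in the comparisons below and because Ezh2 and Suz12 carry letters that the others lack. E2F factors are known regulators of genes used in the cell cycle. The windows of 300 bases, from 250 before to 50 after the RefSeq start (GRCm38.p6), were searched on both strands for the E2F-type letters TTTCCCGC, TTTGGCGC, TTTCGCGC and TTTGCCGC. Of all 32851 such windows, 744 (2.26%) held at least 1 of them. Among the members, the windows of Ezh2 and Suz12 held 1 match each and the windows of the other 6 genes none, which says only that these letters are not in those windows. The match began at position 4 from the start in Ezh2 and at -219 in Suz12, and none overlapped another match. The Ezh2 window also held 3 copies of CCAAT, counted on both strands, a pentamer found in 37.4% of all windows. CG dinucleotides numbered 31, 23 and 41 in the windows of Ezh2, Ezh1 and Suz12, against a median of 7. The sequences below run 5′ to 3′ on the gene's own strand up to base 30 after the start, with the E2F-type match in capitals.
Ezh2 (chr6:47595001-47595280, minus strand): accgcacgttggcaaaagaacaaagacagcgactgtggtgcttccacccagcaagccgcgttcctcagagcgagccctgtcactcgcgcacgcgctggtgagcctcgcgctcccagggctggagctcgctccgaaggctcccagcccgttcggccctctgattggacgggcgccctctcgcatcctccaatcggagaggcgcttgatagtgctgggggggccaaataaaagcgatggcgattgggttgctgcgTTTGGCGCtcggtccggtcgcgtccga
Ezh1 (chr11:101226434-101226713, minus strand): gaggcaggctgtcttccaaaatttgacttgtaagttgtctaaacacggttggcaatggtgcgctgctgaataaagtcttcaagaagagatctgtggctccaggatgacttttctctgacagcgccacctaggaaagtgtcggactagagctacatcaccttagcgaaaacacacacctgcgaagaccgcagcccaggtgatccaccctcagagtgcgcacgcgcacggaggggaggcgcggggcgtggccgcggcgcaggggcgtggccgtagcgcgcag
Suz12 (chr11:79992856-79993135, plus strand): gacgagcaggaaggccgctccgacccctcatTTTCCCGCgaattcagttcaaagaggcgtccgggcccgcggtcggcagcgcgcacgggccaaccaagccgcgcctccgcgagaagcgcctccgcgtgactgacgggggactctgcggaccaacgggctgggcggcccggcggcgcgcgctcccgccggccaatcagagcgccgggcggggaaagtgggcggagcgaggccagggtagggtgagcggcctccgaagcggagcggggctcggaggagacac

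The first comparison asked how each member differed between astroglia of the ages. Ezh1 was higher and Ezh2 lower at 3m, and both differences were larger than the spread between libraries. Ezh1 stood at 4.12, 3.92 and 4.31 CPM in P3 replicates 1, 2 and 3 and at 30.2, 21.7 and 17.7 CPM in 3m replicates 1, 2 and 3. Every 3m library was above every P3 library, and the log2 fold change (3m against P3) was 2.66 (SE 0.24, adjusted p = 1.54e-06, edgeR). Ezh2 stood at 118, 90.7 and 111 CPM at P3 and at 9.50, 10.8 and 9.51 CPM at 3m. Here every 3m library was below every P3 library, with a log2 fold change of -3.21 (SE 0.20, adjusted p = 6.28e-08). The 3m values rest on 101 UMIs of Ezh1 and 45 of Ezh2 over 1118 cells.

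In the 3m astroglia 226 of 1118 cells (20.2%) held a UMI of Mog, Mobp, Mag or Opalin, genes of myelinating oligodendrocytes, against 22 of 8874 (0.248%) at P3. With those cells left out, the log2 fold change was 2.68 for Ezh1 and -3.23 for Ezh2. The part of the mitochondrial share and of depth per cell in these values was not tested, apart from the alternatives with thinned libraries and a stricter cell filter given at the end. Across the 17 alternatives run, Ezh1 ranged from 2.42 to 2.81 and Ezh2 from -3.48 to -2.89, and both passed in each.

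Of the other subunits, Rbbp4, the histone binder, fell with age, from 173, 190 and 258 CPM to 80.3, 87.9 and 80.1 CPM (log2 fold change -1.12, SE 0.18, adjusted p = 0.000227). Suz12, the scaffold, was 53.7, 42.0 and 52.1 CPM at P3 and 19.9, 28.2 and 25.1 CPM at 3m, and it fell by 0.79 on the log2 scale (SE 0.19, adjusted p = 0.00337). In both genes the ages did not overlap, but this held for all members except Bmi1, also for Eed and Rbbp7, which did not pass. The share of all genes without overlap was not counted. Jarid2 rose, with a log2 fold change of 0.93 (SE 0.19, adjusted p = 0.00121) to 50.1, 38.5 and 36.7 CPM at 3m. Rbbp7 did not pass (124, 108 and 116 CPM at P3 and 70.8, 78.1 and 84.9 CPM at 3m, -0.37, SE 0.16, adjusted p = 0.068), but did with the library numbers as a replicate block (-0.38, adjusted p = 0.0447). Eed, the reader of the mark, had a log2 fold change of -0.31 (SE 0.20, adjusted p = 0.211). Bmi1 was at 0.14 (SE 0.22, adjusted p = 0.617) and took the other sign when libraries were scaled by their totals alone (-0.06).

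In sum 2 of the 8 members were called higher at 3m and 3 lower, with a median log2 fold change of -0.34. Among all 13530 genes tested, 23.3% were called higher and 25.7% lower, with a median of -0.04. The share of members called was near that of genes at large. With library totals alone the median of all genes moved to -0.24 and the share of calls that were higher from 47.6% to 36.6%.

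The next comparison left cycling cells out, since these were present at P3 only. A cell was called cycling when it held a UMI of at least 2 of Mki67, Top2a and Cdk1, genes of dividing cells. There were 335, 477 and 500 such cells in the P3 libraries and none among the 1118 astroglial cells at 3m, which were shallower. Non-cycling P3 cells (7395) were those not called cycling and outside sub-clusters 6 and 8, where 1010 of 1177 cells were called cycling. These cells still held RNA of genes used in the cell cycle. Mki67, Top2a, Cdk1, Mcm2 and Pcna had means of 3.29, 7.25, 8.03, 7.45 and 63.6 CPM in them. At 3m the means were 0, 0.181, 0, 0 and 36.7 CPM, and each gene was called lower there. The part of any remaining cycling cells in the age differences was not tested. In the non-cycling P3 cells Ezh2 stood at 63.0, 50.2 and 61.6 CPM, above the 9.50 to 10.8 CPM of 3m (log2 fold change -2.31, SE 0.21, adjusted p = 1.1e-06), a 4.96-fold difference. Ezh1 stood at 4.81, 4.79 and 5.27 CPM, below the 17.7 to 30.2 CPM of 3m (log2 fold change 2.42, SE 0.24, adjusted p = 3.23e-06), a 5.35-fold difference. Without cells holding an oligodendrocyte marker UMI Ezh1 was at 2.44. Counted per cell instead of as CPM, Ezh1 came to 3.69 UMIs per 100 non-cycling cells at P3 and 9.03 per 100 cells at 3m, although the 3m cells held fewer UMIs in all.

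Jarid2 (30.6, 22.4 and 24.0 CPM at P3) and Rbbp4 (141, 163 and 230 CPM at P3) also kept their calls in non-cycling cells, at 0.91 (SE 0.19, adjusted p = 0.00158) and -0.88 (SE 0.20, adjusted p = 0.00255). Suz12 no longer passed, at -0.41 (SE 0.19, adjusted p = 0.1004), with 40.5, 32.8 and 42.3 CPM at P3. Eed (-0.09), Rbbp7 (-0.03) and Bmi1 (0.33) did not pass either. So 2 of 8 members were higher and 2 lower, against 21.7% and 21.9% of the 12867 genes tested, and the members' median was -0.06 against -0.02 for all genes. Scaling by library totals alone moved the share of calls that were higher from 49.7% to 35.1% and the median of all genes to -0.24.

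**Figure D1:**
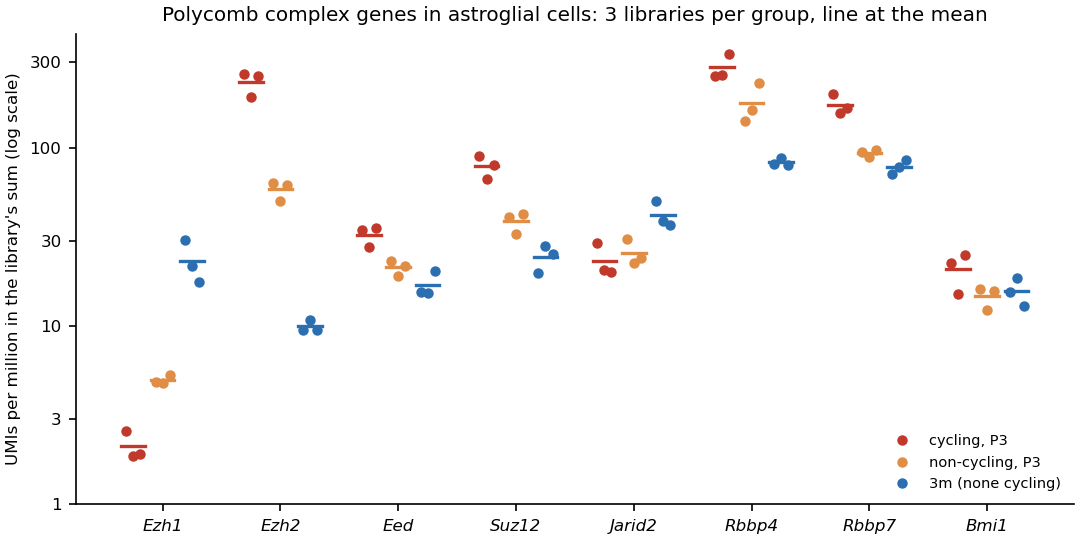
Level of each member in astroglial cells, in UMIs per 1000000 on a log axis, for cycling and non-cycling cells at P3 and all cells at 3m; each point is 1 library and the bar is the mean of 3. Ezh2 goes from 193 to 260 CPM in cycling cells to at most 10.8 CPM at 3m, while Ezh1 is lowest in cycling cells and highest at 3m.

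Because Ezh1 and Ezh2 fill the same place in the complex, their balance was expressed as the share of Ezh1 among the UMIs of both. As a 3′ count without length scaling, this share can be compared between groups of cells but does not give a ratio of proteins. In the astroglia it was 3.37, 4.14 and 3.74% in the P3 libraries and 76.1, 66.7 and 65.0% in the 3m libraries. The Wilson 95% intervals at 3m, which cover counting error only, ran from 62.1 to 86.1%, from 54.1 to 77.3% and from 49.5 to 77.9%. The means, 3.75% ± 0.387 (SD, n = 3) and 69.3% ± 5.98 (SD, n = 3), differed by 65.5 percentage points. The groups did not overlap, and the exact permutation test (two-sided) gave p = 0.1, the smallest that 3 against 3 libraries allow. In non-cycling P3 cells the share was 7.10, 8.71 and 7.88%, and in cycling cells 0.986, 0.958 and 0.759%.

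Cycling and non-cycling cells of the same P3 libraries were then compared, with the library as a block and all cells not called cycling (7562) as the other side. The catalytic subunit Ezh2 was higher in cycling cells, as were Eed, Suz12, Rbbp4, Rbbp7 and Bmi1, Ezh1 was lower, and Jarid2 did not pass. Ezh2 was at 260, 193 and 251 CPM in the cycling cells of replicates 1, 2 and 3 and at 64.0, 50.9 and 63.5 CPM in the others, a log2 fold change of 2.07 (SE 0.05, adjusted p = 1.03e-12) or 4.19-fold. Each library showed this direction. Suz12 was at 89.4, 66.6 and 79.6 CPM in cycling cells, and rose by 1.12 on the log2 scale (SE 0.07, adjusted p = 7.69e-09). Rbbp7 was at 198, 156 and 168 CPM there (log2 fold change 0.97, adjusted p = 1.05e-08) and Rbbp4 at 252, 256 and 335 CPM (0.76, adjusted p = 1.11e-07).

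Eed (34.4, 27.6 and 35.5 CPM in cycling cells) was higher there by 0.70 on the log2 scale (adjusted p = 4.57e-06), and Bmi1 (22.6, 15.1 and 25.1 CPM) by 0.58 (SE 0.10, adjusted p = 0.000232). Ezh1 was at 2.59, 1.86 and 1.92 CPM, with a log2 fold change of -1.11 (SE 0.23, adjusted p = 0.000988) that rests on 44 UMIs in the cycling cells. Jarid2 (29.1, 20.5 and 20.1 CPM) had a log2 fold change of -0.04 (adjusted p = 0.686). Hence 6 of 8 members were higher and 1 lower, against 30.4% and 31.4% of the 13306 genes tested, and the members' median was 0.73 against -0.03 for all genes. Cycling cells were deeper, with a median of 11944.5 to 16713 UMIs per cell against 5140.5 to 8966 in the cells not called cycling. In an alternative, cells under 2000 UMIs were left out, and cycling was called on the rest after thinning each to 2000 UMIs. This called 160, 207 and 215 cells of the P3 libraries cycling, and the others formed the other side. The tested counts were not thinned, so the depth difference remained in them. Ezh2 was then at 1.81 and Ezh1 at -1.36, and the same 7 members passed.

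**Figure D2:**
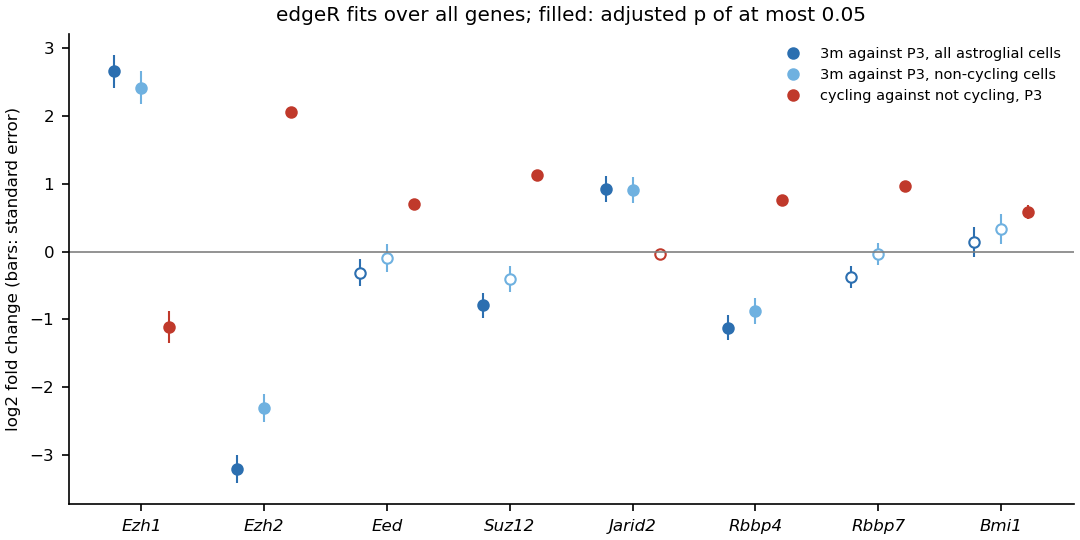
Log2 fold change of each member with its standard error in the age comparison over all astroglia, in the age comparison over non-cycling astroglia, and in cycling against other astroglia at P3; filled points passed the adjusted threshold. Ezh1 and Ezh2 have opposite signs in all 3 comparisons, and Jarid2 passed in both age comparisons but not with cycling.

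The deposited pseudotime, a position from dividing progenitors to mature astrocytes that the authors inferred from these same counts, ordered the values further. It is given as a description with no test, because the members were among the counts behind the ordering. Ezh2 was at 366, 230 and 290 CPM in P3 replicates 1, 2 and 3 in bins 2 to 3, where 98.9% of cells were called cycling. It was at 152, 107 and 144 CPM in bin 11 and at 49.7, 44.1 and 50.1 CPM in bin 14. The 3m cells of bins 16 to 17 held 18.4, 9.71 and 7.65 CPM, from 17 UMIs in all. In the non-cycling cells as defined above, Ezh2 was at 108, 89.5 and 137 CPM in bin 11 and at 44.0, 42.3 and 48.6 CPM in bin 14. Thus the lower level late in the P3 course was present without the cells called cycling as well. Some cell cycle RNA remained in the non-cycling set, and its part here was not tested.

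Ezh1 was low throughout P3 and lowest in the early bins. Its mean ran from 1.12 to 2.89 CPM in bins 2 to 10, where each group of bins held only 2 to 13 UMIs of it. In bins 11 to 14 the mean ran from 3.27 to 4.68 CPM, and over non-cycling cells alone from 4.16 to 4.96 CPM. In the 3m cells of bins 16 to 17 it was 27.5, 25.0 and 16.6 CPM, from 37 UMIs in all. In bins 18 to 19 the 3m libraries spread widely, at 31.8, 4.34 and 17.6 CPM. These last values rest on 35 UMIs in all, so counting error is part of their spread. Suz12 went from a mean of 98.6 CPM in bins 2 to 3 to 36.1 CPM in bin 14 and 16.9 CPM in bins 16 to 17. Jarid2 lay at means of 14.7 CPM in bins 2 to 3, 34.0 CPM in bins 6 to 7 and 27.5 CPM in bin 14, and reached 51.6 CPM in bins 16 to 17.

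**Figure D3:**
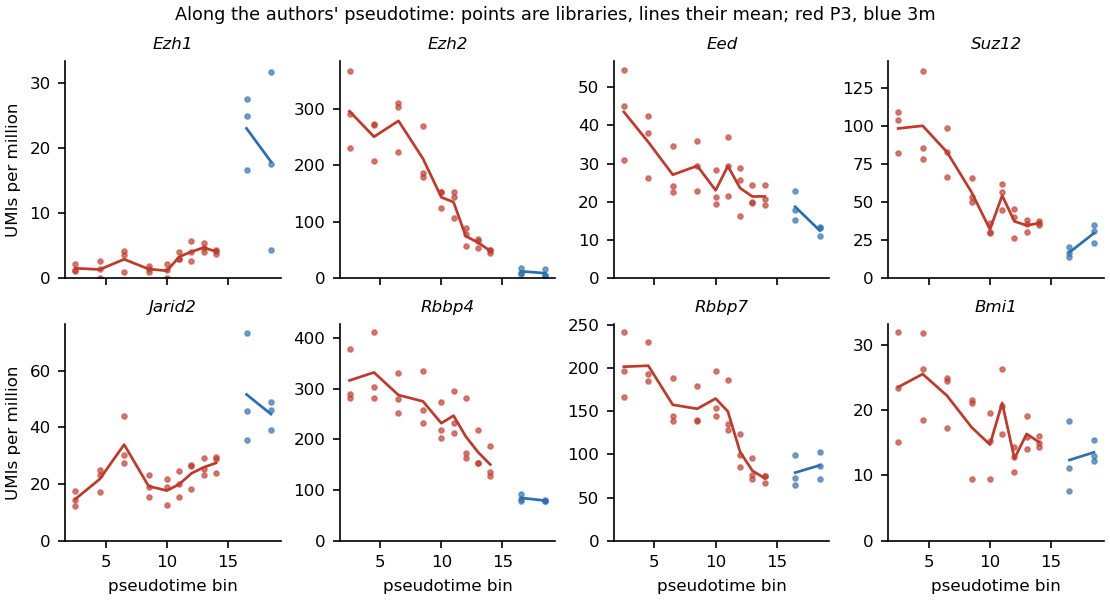
Level of each member in UMIs per 1000000 along bins of the deposited pseudotime, with P3 and 3m cells drawn apart; points are libraries and lines join the means. Ezh2 goes down within P3 from a mean of 295 CPM in bins 2 to 3 to 48.0 CPM in bin 14, while Ezh1 stays under 6 CPM in every P3 library and is at 16.6 to 27.5 CPM in the 3m cells of bins 16 to 17.

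Among the astroglial sub-clusters, by the mean over libraries with at least 20 cells in them, Ezh2 was highest in sub-clusters 6 (261 CPM) and 8 (204 CPM). In the other 11 P3 sub-clusters it ran from 47.1 CPM in sub-cluster 0 to 143 CPM in sub-cluster 4, and in the 4 sub-clusters of 3m from 6.24 CPM in 13 to 22.6 CPM in 16. Thus no 3m sub-cluster reached any P3 sub-cluster by these means. Sub-clusters 13 and 16 held only 6 UMIs of Ezh2 each, so counting error is a large part of their values. Of those 11, sub-clusters 4, 15 and 12 had the highest Ezh2, at 143, 135 and 113 CPM. These also held Top2a at 270, 214 and 213 CPM, against 2.51 to 22.7 CPM in the rest of the 11. Cdk1 was at 157, 156 and 129 CPM, against 3.95 to 25.7 CPM, and Pcna at 143, 124 and 148 CPM, against 47.8 to 123 CPM. Mki67 was at 83.4 and 86.1 CPM in 4 and 12, but at 5.91 CPM in 15, within the 0.199 to 14.6 CPM of the rest. Mcm2 was at 30.1 and 56.5 CPM in 4 and 12, but at 10.3 CPM in 15, within 1.83 to 26.9 CPM. The part of cycling cells in these values was not tested. Ezh1 ran from 2.95 CPM in sub-cluster 15 to 6.87 CPM in 5 among those 11. At 3m it ran from 11.3 CPM in 16, which held 2 UMIs in all, to 31.0 CPM in 14. With all libraries of a sub-cluster pooled, the value of sub-cluster 16 was 8.04 CPM and that of 5 was 8.68 CPM, so that the ages then overlapped. Sub-clusters 4 and 14 came nearly whole from 1 library each, so their values cannot be told apart from that library.

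The annotation also named a pair of dividing progenitor clusters at P3, GPC_8 (574 cells) and GPC_9 (512 cells), with similar levels of Mki67 (355 and 366 CPM). Ezh2 had a mean of 265 CPM in GPC_8 and 214 CPM in GPC_9, and Eed of 37.2 and 23.1 CPM. Suz12 was at 90.6 and 62.8 CPM, Rbbp4 at 310 and 260 CPM and Rbbp7 at 186 and 147 CPM. These genes and Bmi1 (23.7 and 18.4 CPM) were higher in GPC_8 in 3 of 3 libraries, and Jarid2 (19.8 and 27.8 CPM) was lower in 3 of 3. Ezh1 (1.20 and 1.86 CPM, from 13 and 14 UMIs) was higher in GPC_8 in 1 of 3. How many of all genes were higher in 3 of 3 was not counted. No test was made, since the clusters were drawn from the same counts. Similar Mki67 does not show that the clusters were in the same phase of the cycle. In sub-clusters 6 and 8, where most cells were called cycling, Mki67 was at 325 and 352 CPM and Top2a at 750 and 628 CPM. Cdk1 was at 414 and 483 CPM there, Mcm2 at 60.5 and 17.8 CPM and Pcna at 416 and 118 CPM. The part of the cycle phase in the values of the members was not tested.

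Outside the astroglia the tests asked which members were set differently in the other cells of the sort. At 3m the oligodendrocytes (1731 cells) were compared with the astroglia of the same libraries. Ezh1 was at 41.2, 40.1 and 40.2 CPM in the oligodendrocytes of replicates 1, 2 and 3, above the 17.7 to 30.2 CPM of astroglia, with a log2 fold change of 0.83 (SE 0.18, adjusted p = 0.00126). Ezh2 (11.1, 11.0 and 9.59 CPM) did not pass, at 0.08 (SE 0.26, adjusted p = 0.797). Bmi1 was at 39.2, 41.4 and 42.4 CPM in oligodendrocytes against 15.6, 18.4 and 12.9 CPM in astroglia (log2 fold change 1.38, SE 0.19, adjusted p = 2.67e-05).

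The histone binders moved apart between these cell types. Rbbp4 was higher in oligodendrocytes, at 141, 169 and 157 CPM (log2 fold change 0.91, adjusted p = 7.14e-06), and Rbbp7 lower, at 44.2, 44.8 and 40.9 CPM (-0.84, adjusted p = 8.78e-05). Thus 3 of 8 members were called higher and 1 lower, against 32.3% and 33.5% of 10367 genes. The share of Ezh1 among Ezh1 and Ezh2 UMIs was 79.3% ± 1.26 (SD, n = 3) in the oligodendrocytes. The 3m astroglia held oligodendrocyte marker RNA, as given above, and the part of that RNA in this comparison was not tested.

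At P3 the mural cluster PER_6 (628 cells, mural and pericyte markers at a mean of 18068 CPM) and the endothelial cluster END_7 (605 cells, endothelial markers at 4318 CPM) were set against the non-cycling astroglia of the same libraries. END_7 also held red blood cell markers at 15670 CPM and mural markers at 2731 CPM, and its cells had a median of 22395.5 to 32603 UMIs. Both clusters contained cycling cells, with Mki67 at 131 and 67.3 CPM against 3.29 CPM in the non-cycling astroglia, and the part of these in the values was not tested. Ezh2 did not pass in either: it was at 64.8, 42.1 and 61.9 CPM in PER_6 (log2 fold change -0.03) and at 64.2, 28.1 and 44.9 CPM in END_7 (-0.26, SE 0.14, adjusted p = 0.107). Without P3 replicate 1 the latter passed (-0.45, adjusted p = 0.00172).

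Ezh1 was higher in END_7, at 18.5, 15.5 and 13.3 CPM (log2 fold change 1.78, SE 0.18, adjusted p = 1.69e-06), with every library above the non-cycling astroglia. In PER_6 Ezh1 was at 10.4, 5.27 and 10.2 CPM (0.84, SE 0.33, adjusted p = 0.0347), but this call was lost without P3 replicate 1 (0.64, adjusted p = 0.23) and without P3 replicate 3 (0.75, adjusted p = 0.133). Suz12 and Rbbp7 were higher in PER_6 (0.59, adjusted p = 0.000632, and 0.62, adjusted p = 3.8e-05) and in END_7 (0.84, adjusted p = 1.58e-05, and 0.60, adjusted p = 0.000369). Jarid2 was higher in END_7 (0.55, adjusted p = 0.000691). Bmi1 in PER_6 (0.42, adjusted p = 0.0945) passed without P3 replicate 3 (0.61, adjusted p = 0.0423). Members called higher numbered 3 of 8 in PER_6 and 4 of 8 in END_7 and none was called lower. The backgrounds were 29.0% higher and 31.5% lower of 13220 genes for PER_6, and 35.8% and 38.6% of 13762 genes for END_7. All cell type comparisons at P3 share the non-cycling astroglia as their other side.

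Microglia were the only other cell type with libraries at both ages in the tests, with 124 cells at P3 and 60 at 3m. At that depth 2 of 8 members passed the filter on low counts. Rbbp4 was lower at 3m (log2 fold change -1.83, SE 0.46, adjusted p = 0.0171), a call lost without 3m replicate 1 (-1.31, adjusted p = 0.114) and without 3m replicate 3 (-1.93, adjusted p = 0.0662), and Rbbp7 did not pass (-0.96, adjusted p = 0.133). So 0 of the tested members were called higher and 1 lower, against 7.39% and 4.18% of 2679 genes. Ezh2 had 38 UMIs in the P3 microglia and 2 in those of 3m, and Ezh1 5 and 7. Cycling cells were not taken out of the microglia, where Mki67 was at a mean of 94.8 CPM at P3 and at 0 at 3m, and their part in these values was not tested. Of the other Polycomb genes described below, 2 were tested here and Kdm6b, which removes the methyl mark of complex 2, was lower at 3m (-1.80, adjusted p = 0.0251). Whether the age difference in non-cycling astroglia differed from that in microglia was tested by an interaction term in edgeR. There 0 of 8 members passed, against 4.38% of 9217 genes called with a higher and 1.65% with a lower difference in astroglia. Under an unadjusted p of 0.05 were 3 members, Suz12 (1.35, adjusted p = 0.276), Rbbp4 (1.28, adjusted p = 0.0929) and Rbbp7 (1.23, adjusted p = 0.12). At the same unadjusted threshold were 1558 of the 9217 genes. The median of this term was 0.92 for the members and 0.31 for all genes tested. Of 24 other Polycomb genes tested, Bcor (3.27, adjusted p = 0.0382) passed with a higher and Phc2 (-2.18, adjusted p = 0.0147) with a lower difference in astroglia. This test sets non-cycling astroglia against microglia that include cycling cells.

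Over 15 profiles of cell type and age, the level of Ezh2 was highest in cycling astroglia (mean 234 CPM), then in AST_P3_19 (139 CPM), a small P3 cluster of 96 cells with markers of multiciliated cells, and in the P3 cluster OPC_18 (104 CPM), which carried the markers of oligodendrocyte precursors. Of the cells of AST_P3_19, 46 were called cycling and are counted in that profile too, and the other 50 in the non-cycling one. The libraries of cycling astroglia and AST_P3_19 did not overlap, nor did those of AST_P3_19 and OPC_18. From OPC_18 down to the P3 microglia (42.4 CPM) neighbours in the order overlapped. The lowest P3 profile, LOW_20 (28.2 CPM), lay apart from the P3 microglia above it and from the highest 3m mean, END_17 (11.99 CPM), below it. The gap to END_17 was narrow, at 23.5 against 23.3 CPM for their nearest libraries, and 1 library of LOW_21 at 3m (24.2 CPM, from 1 UMI) was inside the range of LOW_20. The 5 profiles of 3m overlapped from each to the next. Ezh1 was highest in END_17 at 3m (49.8, 89.5 and 48.7 CPM), followed by LOW_21 at 3m (50.4 CPM, 8 UMIs in all) and the oligodendrocytes (40.5 CPM). For Ezh1 every pair of neighbours in this order overlapped, and several of the small clusters held under 10 UMIs of it.

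**Figure D4:**
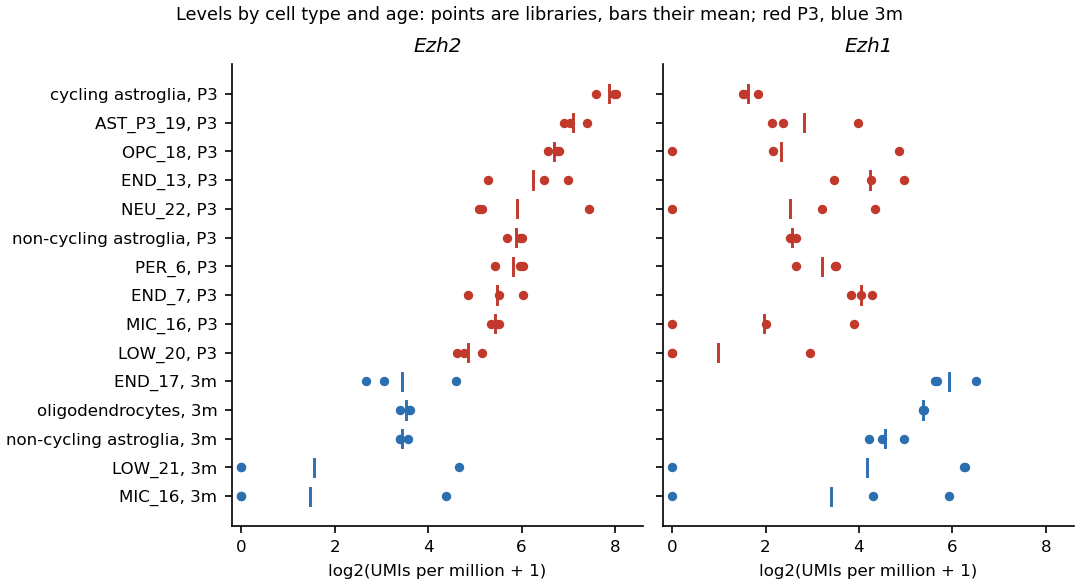
Ezh2 and Ezh1 in 15 profiles of cell type and age, as log2 of UMIs per 1000000 plus 1; points are libraries and bars are means of the log values. For Ezh2 the mean of every P3 profile lies above that of every 3m profile, whereas for Ezh1 the highest mean log values are those of END_17, the oligodendrocytes and the astroglia at 3m.

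The genes whose mean log2 profile was most like that of Ezh2 were Ube2t (Pearson r 0.94), Eif3i (0.93), Selenoh (0.92), Ccne1 (0.92), which encodes the cyclin of entry into S phase, and Lockd (0.92). For Ezh1 they were Rabac1 (0.92), mt-Nd3 (0.88), Smim14 (0.88), Lars2 (0.84) and Pdxk (0.84). These r values run across the 15 profiles, searched over 11117 genes. Between Ezh1 and Ezh2 r was -0.72. The profiles share libraries and, in part, cells, and differ in depth, so the r values only describe them.

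The other Polycomb genes were followed as a list of 32: 6 accessory subunits of complex 2, 20 genes of complex 1 and 6 enzymes or partners that remove either mark. In the age comparison over all astroglia 31 were tested, of which 6 were higher and 12 lower at 3m, with a median of -0.55, against 23.3% higher, 25.7% lower and a median of -0.04 for all genes. By class, 1 accessory gene of 6 was higher and 2 lower, 5 of 20 genes of complex 1 were higher and 8 lower, and 2 of 5 tested opposing genes were lower. In non-cycling cells 7 of 31 were higher and 9 lower, with a median of -0.45, against 21.7%, 21.9% and -0.02 for all genes. Cbx7 and Cbx2 encode alternative subunits that read the methyl mark for complex 1, and they moved in opposite directions. Cbx7 was at a mean of 17.5 CPM at 3m and 2.68 CPM in non-cycling P3 cells, with a log2 fold change of 2.91 (adjusted p = 4.71e-06). Cbx2 was lower at 3m (adjusted p = 0.0167), but with 3 UMIs at 3m against 181, a P3 to 3m ratio of 4.90 (exact 95% counting interval 1.65 to 24.0).

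Pcgf2, the close relative of Bmi1 in complex 1, was at 2.55 CPM at 3m and 21.2 CPM in non-cycling P3 cells (log2 fold change -2.66, adjusted p = 0.000156), whereas Bmi1 itself did not pass. Kdm2b (-1.20), which brings complex 1 to unmethylated CG-rich DNA, and the accessory gene Epop (-1.28) were also lower. Phf1 (1.61), an accessory subunit of complex 2, and Bcor (1.03), of a variant complex 1, were higher. With all astroglia in the comparison, Phf19 passed as well (-1.79), from 4 UMIs at 3m, and Bcor was not among the genes past a log2 fold change of 1.

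In cycling against other P3 cells, 14 of 31 were higher and 7 lower, among them 10 and 5 of the 20 genes of complex 1, against 30.4% and 31.4% of all genes. Phf19 (2.25) and L3mbtl2 (1.31) were higher by more than 1 on the log2 scale and Cbx7 (-1.36) lower. Phf19, a partner of Ezh2 in complex 2, thus had a mean of 8.28 CPM in cycling cells and 1.80 CPM in the others.

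In oligodendrocytes against 3m astroglia, 10 of 28 tested genes were higher and 3 lower, against 32.3% and 33.5% of all genes. Rybp, a subunit of variant complex 1, was at 61.1 against 2.89 CPM (log2 fold change 4.17) and Pcgf5, of the same kind, at 4.70 against 38.5 CPM (-3.04). Phc1 (1.98), Phc2 (1.54), Kdm6a (1.92) and Aebp2 (1.64) were higher and Phf1 (-1.08) lower. Asxl3 had 186 UMIs in oligodendrocytes and 2 in astroglia, a ratio of 37.2 (exact counting interval 10.2 to 309). Rybp was also higher than in non-cycling astroglia in PER_6 (2.64) and END_7 (3.25), where 8 and 11 of 31 genes were higher and 3 and 9 lower. The shares over all genes were 29.0% and 35.8% higher and 31.5% and 38.6% lower. Further genes past a log2 fold change of 1 were Phc2 (1.65 and 1.29) and Bcor (1.82 and 1.53), higher in both clusters, and Epop (-2.59 and -1.85), lower in both. Aebp2 (1.13) and Pcgf5 (-2.34) passed it in PER_6, and Mtf2 (1.18) and Cbx7 (-2.14) in END_7.

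**Figure D5:**
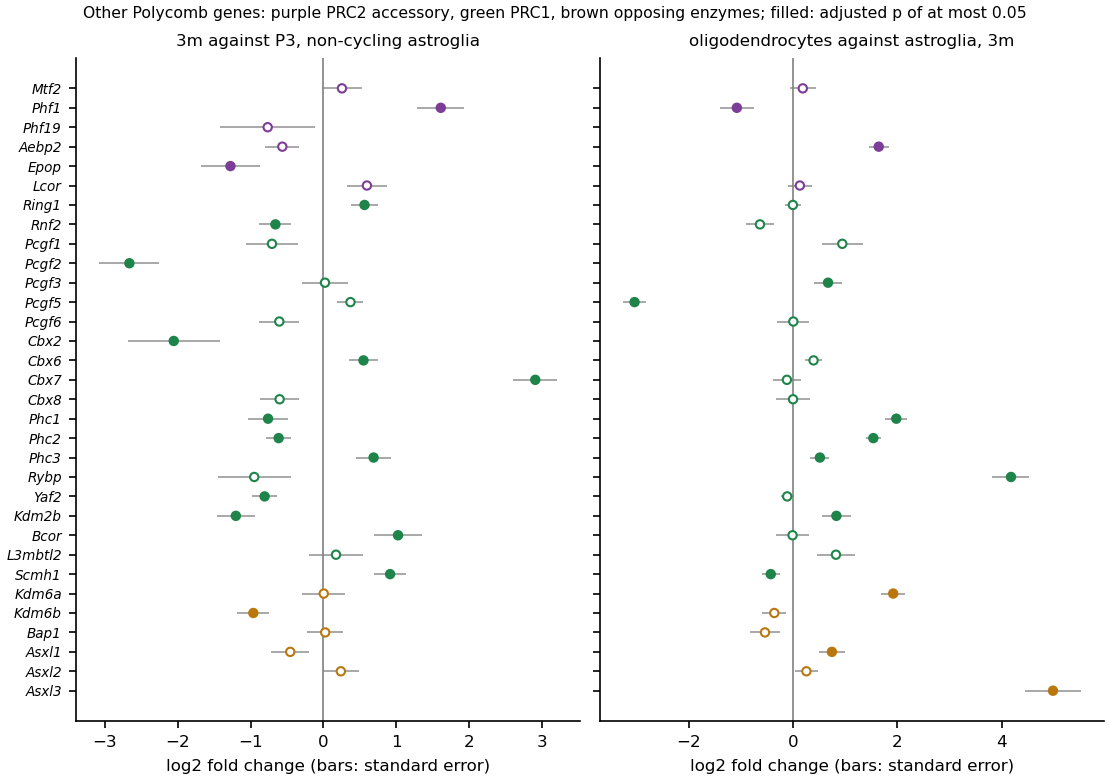
Log2 fold change with standard error of the other Polycomb genes, for age in non-cycling astroglia and for oligodendrocytes against astroglia at 3m; filled points passed the adjusted threshold and genes not tested have no point. Cbx7 and Pcgf2 mark the ends of the age comparison at 2.91 and -2.66, and Asxl3, Rybp and Pcgf5 those of the cell type comparison.

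Known Polycomb targets had few UMIs in the astroglia. The 39 Hox genes, which set position along the body axis, held 10 UMIs among 77526661 at P3, spread over 5 genes, and 1 UMI among 4473981 at 3m. At these depths a gene at 0 UMIs is limited to 0.0387 CPM at P3 and 0.671 CPM at 3m (3 UMIs of the total, counting error only). The cell cycle inhibitors Cdkn2a, Cdkn2b and Cdkn1c had 114, 204 and 314 UMIs at P3, or 1.47, 2.63 and 4.05 CPM, and 1, 4 and 3 UMIs at 3m. The 3m counts are at or near the limit, and no direction was read from them.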

How the data were processed

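Single cell RNA from 3 P3 and 3 3m libraries was used. Per the labels and methods, the authors aligned reads to mm10 with Cell Ranger and deposited raw UMI counts per gene and barcode, with a table of cluster names, sub-clusters and a pseudotime score that the authors computed in Seurat (3.1.1 in the submitters' processing notes) and related tools. The annotated cells are those with over 500 genes and under 10% mitochondrial UMIs. The authors' cell annotation was kept as it stands and no doublet caller was run. No column of per-sample values was left unmatched.

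UMIs were summed per library and cell set (Python 3.11.15) and tested in edgeR 4.0.16 (R 4.3.3) with the quasi-likelihood test, TMM scaling, filterByExpr and two-sided Benjamini-Hochberg adjustment over all genes tested. The threshold was an adjusted p of 0.05, and SE is the log2 fold change divided by the square root of F. Levels are UMIs per 1000000. Comparisons within an age had the library as a block. The procedure was tested on simulated data. Libraries may share technical steps, so p-values measure the spread between these 6 pools. The deviations of same-numbered P3 and 3m libraries from their group means had r of 0.384, 0.158 and 0.131 over 8067 genes, and those of other-numbered ones from -0.271 to 0.178, so that replicates 2 and 3 paired about as well crossed. The main age fits and the permutation test took the libraries as unpaired. As every same-numbered r was over 0.1, a fit with the numbers as a replicate block was run as an alternative, though these r do not establish pairs. The others were RLE scaling, library totals, no count filter, DESeq2 1.42.0, thinning, other cell sets, the threshold of a log2 fold change of 1, and each library left out. Leaving out cells with oligodendrocyte marker UMIs was chosen after seeing the data.

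The members and lists were chosen with earlier results of these data known. One gene of the list of other Polycomb genes is not reported here and was left out of its counts. The text names all 8 members, other Polycomb genes that passed and changed by 1 or more on the log2 scale in either direction, and the 5 genes most like Ezh1 and Ezh2 by Pearson r of log2(CPM + 1), among named genes with at least 20 CPM in 1 profile. Positions are from GENCODE (GRCm38) and promoters from RefSeq.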

Additional observations from a re-analysis of the deposited data

How the results depend on the processing

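Of 480 values of the members under the alternatives, 442 kept their direction and side of the threshold, 13 passed only under the alternative, 5 lost their call and 20 changed sign, the last all for members that had not passed. In the age comparison over all astroglia, 6621 genes passed. The threshold of a log2 fold change of 1 left 4344 genes and 3 members, thinning to the smallest library 4279 genes and the stricter cell filter (over 1000 genes and under 5% mitochondrial UMIs, which left few cells in 3m replicate 1) 3629. In non-cycling astroglia 5612 passed, and these settings left 3478 genes with 2 members, 3639 and 2842. For cycling 8227 passed, against 2261 with 3 members at the fold threshold and 4653 without the library block. In microglia 310 passed, 535 without the count filter, and 125 to 292 genes and 0 to 1 members with 1 library left out, with 125 without 3m replicate 1, 159 without 3m replicate 2 and 196 without 3m replicate 3. The interaction term gave 556 genes, and 370 to 541 with 1 library left out, the fewest without 3m replicate 2.

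With the replicate block, Rbbp7 passed in the age comparison over all astroglia (-0.38, adjusted p = 0.0447), and the pairing changed no other call. Rbbp7 also passed there under RLE scaling, library totals, no count filter, DESeq2 and all barcodes, Eed in telencephalic sub-clusters (-0.52, adjusted p = 0.0488), and Suz12 in non-cycling cells under library totals (-0.64) and no count filter (-0.53). Bmi1 with age changed sign under library totals (-0.056), in telencephalic sub-clusters (-0.28), under the stricter cell filter (-0.14), without cells holding an oligodendrocyte marker UMI (-0.17) and over libraries left out (-0.0739 to 0.235), and passed over all barcodes (1.05). Eed changed sign under the stricter filter (0.18). In non-cycling cells Eed did so when thinned (0.25), under the stricter filter (0.38) and without marker-holding cells (0.0055), Rbbp7 in telencephalic sub-clusters (0.27) and Bmi1 there (-0.0943). Jarid2 with cycling was at 0.0026 by sub-clusters 6 and 8, 0.14 after thinning cells and -0.0773 to 0.0113 with 1 library left out. With 1 library left out, Ezh2 in PER_6 ran from -0.0915 to 0.0124 and Rbbp4 from -0.208 to 0.0527, and in END_7 Rbbp4 from -0.12 to 0.0374 and Eed from -0.157 to 0.17. Without the count filter Ezh1 in PER_6 lost its call (0.73, adjusted p = 0.0693) and Ezh2 in END_7 passed (-0.29, adjusted p = 0.0334). The cause was not tested. The Ezh1 share differed by 61.4 to 67.2 points over the other cell sets and by 62.1 to 67.6 points with 1 library left out (exact p = 0.2, the smallest possible there). Depth limits the 3m values most, with 53392 to 101265 UMIs per library in microglia and 1157485 to 1843998 in astroglia.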
